A study of Sus scrofa with 6 samples.

Results

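Smooth muscle contractile genes were followed in scrapings of the pig uterine lining. The set held 10 genes, ACTA2, ACTG2, TAGLN, CALD1, CNN1, DES, MYH11, MYLK, MYOCD and TPM2, and every probe set (a group of short probes designed for 1 transcript) that the array's annotation names with one of these symbols was taken, whatever its values. This gave 15 of the 23999 probe sets tested and covered 9 of the 10 genes. The annotation names 0 probe sets for MYH11, the smooth muscle myosin heavy chain, which was therefore not analysed here.

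The samples were the horn with embryos at the blastocyst stage and the opposite horn with oocytes of 3 sows, 1 Affymetrix porcine array per horn, and the comparison asked what the presence of embryos changed in the uterus of the same female. On the embryo side the oviduct had received spermatozoa by laparoscopy and on the oocyte side only the semen diluent, in weaned Landrace x Large White crossbred sows that were all hysterectomised on day 6, so every sow carried both treatments. Cells were scraped with a glass slide from the mucosal surface of the horn next to the oviduct, over the first 10 cm by the labels and over a stretch that could be longer by the study's methods. Of 15 measured uterine epithelial markers 14 had a mean signal above the median of the array, MUC1 (20.4 to 34.9) being the exception. The brightest, KRT8, a keratin of simple epithelia, had signals of 2239, 3452 and 3592 with embryos and 2128, 3565 and 3272 with oocytes (sows 1, 2 and 3), and EPCAM, an epithelial adhesion molecule, lay between 2014 and 2328.

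Smooth muscle contracts when myosin light chain kinase, switched on by calcium and calmodulin, phosphorylates myosin on actin filaments built from the alpha and gamma smooth muscle actins. Tropomyosin, caldesmon, calponin and transgelin bind along these filaments, desmin forms the intermediate filaments that tie them together, and myocardin with serum response factor drives the transcription of most of these genes. In the uterus such cells make up the myometrium, which lies beneath the mucosa, and the walls of the larger vessels, and ACTA2 is also made by pericytes and by activated fibroblasts.

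Several contractile genes differed among the sows, and none passed the test between the horns. One array stood apart: the oocyte horn of sow 1 had the highest of the 6 signals in 12 of the 15 probe sets, as against 21.1% of all probe sets, and in 11 of 15 the embryo horn of sow 1 came second, as against 9.51%. In 9 of 15 the signal in the oocyte horn of sow 1 was over 2 times the median of the other 5 arrays, as against 9.53% of all probe sets. Since the sows were compared after these signals had been seen, the counts are given as a description.

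ACTA2, the alpha actin of vascular smooth muscle, had signals of 1021, 429.7 and 756 in the embryo horns (here and throughout in the order of sows 1, 2 and 3) and 1559, 337 and 646 in the oocyte horns. Both horns of sow 1 were high, both of sow 2 were low, and the groups overlapped. The means were 736 ± 296 with embryos and 847 ± 635 with oocytes (SD, n = 3 each). The log2 difference, embryos minus oocytes, was -0.01 with a standard error (SE) of 0.53 and an unadjusted p of 0.983 in limma. Within the sows it was -0.62, 0.34 and 0.24.

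ACTG2, the gamma actin of visceral smooth muscle and so the muscle actin most typical of the myometrium, had 2 probe sets that behaved differently. On Ssc.10316.1.S1_at the signals were 119.5, 70.9 and 30.1 with embryos and 461, 18.3 and 22.6 with oocytes. The highest was 25.2 times the lowest, and the oocyte horn of sow 1 lay 15.3 times above the median of the other 5 arrays. Embryo horns were lower in sow 1 and higher in sows 2 and 3 (log2 differences of -1.97, 1.98 and 0.39). This left a mean difference of 0.14 with an SE of 1.11 (limma, unadjusted p = 0.905). The other probe set, Ssc.6145.1.A1_at, gave 185, 109.9 and 108 with embryos and 132, 102 and 136 with oocytes, a range of only 1.80 times, and a log2 difference of 0.08 with an SE of 0.24. Here the highest signal was that of the embryo horn of sow 1, so the 2 probe sets that carry this gene's name disagreed on which array was highest. The coding sequences of the muscle actins are nearly the same, and the probes of ACTA2 and ACTG2 could not be compared with each other's transcripts, so signal shared between them is possible and was not tested.

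TAGLN, transgelin, an actin-bundling protein that is among the earliest markers of smooth muscle, had signals of 264, 84 and 114 with embryos and 428, 86.2 and 106 with oocytes. Again both horns of sow 1 were above all the other horns, and the horns of sows 2 and 3 were almost equal within each sow. The oocyte horn of sow 1 was 4.03 times the median of the other 5 arrays. The log2 difference was -0.22 with an SE of 0.62 (limma, unadjusted p = 0.733), and -0.71, -0.03 and 0.09 within the sows. With the sow as a block in the fit, the SE was 0.15 and the unadjusted p = 0.179.

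CALD1, caldesmon, which binds actin and calmodulin and restrains myosin, was measured by 2 probe sets. On Ssc.17313.1.A1_at the signals were 408, 244 and 311 with embryos, against 496, 267 and 290.1 with oocytes, and the log2 difference was -0.11 with an SE of 0.28. On Ssc.17313.2.S1_at they were 70.9, 39.2 and 41.6 with embryos, against 109, 40.2 and 51.1 with oocytes, and the log2 difference was -0.32 with an SE of 0.38 (limma, unadjusted p = 0.414). On both probe sets the oocyte horn of sow 1 was highest and the embryo horn of sow 1 next, at 1.71 and 2.62 times the median of the other 5 arrays for the oocyte horn. Caldesmon also has a form made in non-muscle cells, and whether the probes tell the forms apart could not be checked.

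TPM2, beta-tropomyosin, a coiled-coil protein that lies along the actin filament, had 4 probe sets. Ssc.20571.1.S1_a_at gave 102, 69.8 and 74.7 with embryos and 178, 53.1 and 51.4 with oocytes, and Ssc.20571.2.S1_a_at gave 131, 93.8 and 102 with embryos and 243, 58 and 66.8 with oocytes. In both, embryo horns were lower in sow 1 and higher in sows 2 and 3. The log2 differences were -0.82, 0.41 and 0.52 on the first and -0.90, 0.71 and 0.60 on the second. Their means were 0.04 (SE 0.44) and 0.13 (SE 0.48). Ssc.9236.1.A1_at was flatter, with 79.7, 53.6 and 64.1 with embryos and 90.9, 63.9 and 51.7 with oocytes, and a log2 difference of -0.05 (SE 0.25). The fourth, Ssc.20571.2.S1_at, was dim, with 3.40, 4.60 and 2.80 with embryos and 13.2, 9.30 and 4.40 with oocytes. In each of the 3 sows the embryo horn had the lower signal, its log2 difference of -1.23 with an SE of 0.59 was the largest of the 15 probe sets in size on this scale, and it did not pass the test (limma, unadjusted p = 0.0697, and 0.0859 with the sow as a block). With 32 added to each signal before log2, which damps dim signals, the difference was -0.20 (limma, unadjusted p = 0.0433). In limma without a variance trend its unadjusted p was 0.0304, and on leaving out 1 array it ran between 0.0339 and 0.205. The adjusted p of this probe set was not under 0.05 in any setting.

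CNN1, calponin, which binds actin and inhibits the myosin ATPase, had signals of 44.4, 34.1 and 22.3 with embryos and 84.9, 17.6 and 19.9 with oocytes. Its oocyte horn of sow 1 was 3.81 times the median of the other 5 arrays, while in sow 2 the embryo horn was the higher one by 1.00 on the log2 scale, and the mean difference was 0.05 with an SE of 0.56. DES, desmin, had 35.4, 24 and 15.7 with embryos and 68.9, 17.2 and 15.3 with oocytes on Ssc.24.1.S1_at, where the log2 difference was -0.16 with an SE of 0.56. On this probe set the oocyte horn of sow 1 was 4.01 times the median of the other 5 arrays. The other desmin probe set, Ssc.13296.1.A1_at, lay between 0.10 and 5.1 on all 6 arrays, and its log2 difference of 1.19 (SE 1.39) rests on these dim signals.

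MYLK, the myosin light chain kinase that starts contraction, and MYOCD, myocardin, the coactivator that switches the smooth muscle programme on, were dim. MYLK gave 5.20, 2.40 and 2.00 with embryos and 3.30, 3.80 and 2.5 with oocytes, and MYOCD gave 17, 7.30 and 16.8 with embryos and 17.6, 13.2 and 12.3 with oocytes. Neither showed the high signal in the oocyte horn of sow 1 that the filament genes had, as MYLK was highest in the embryo horn of sow 1 and the 3 highest MYOCD signals lay between 16.8 and 17.6. The log2 differences were -0.14 (SE 0.64) for MYLK and -0.17 (SE 0.43) for MYOCD.

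**Figure D1:**
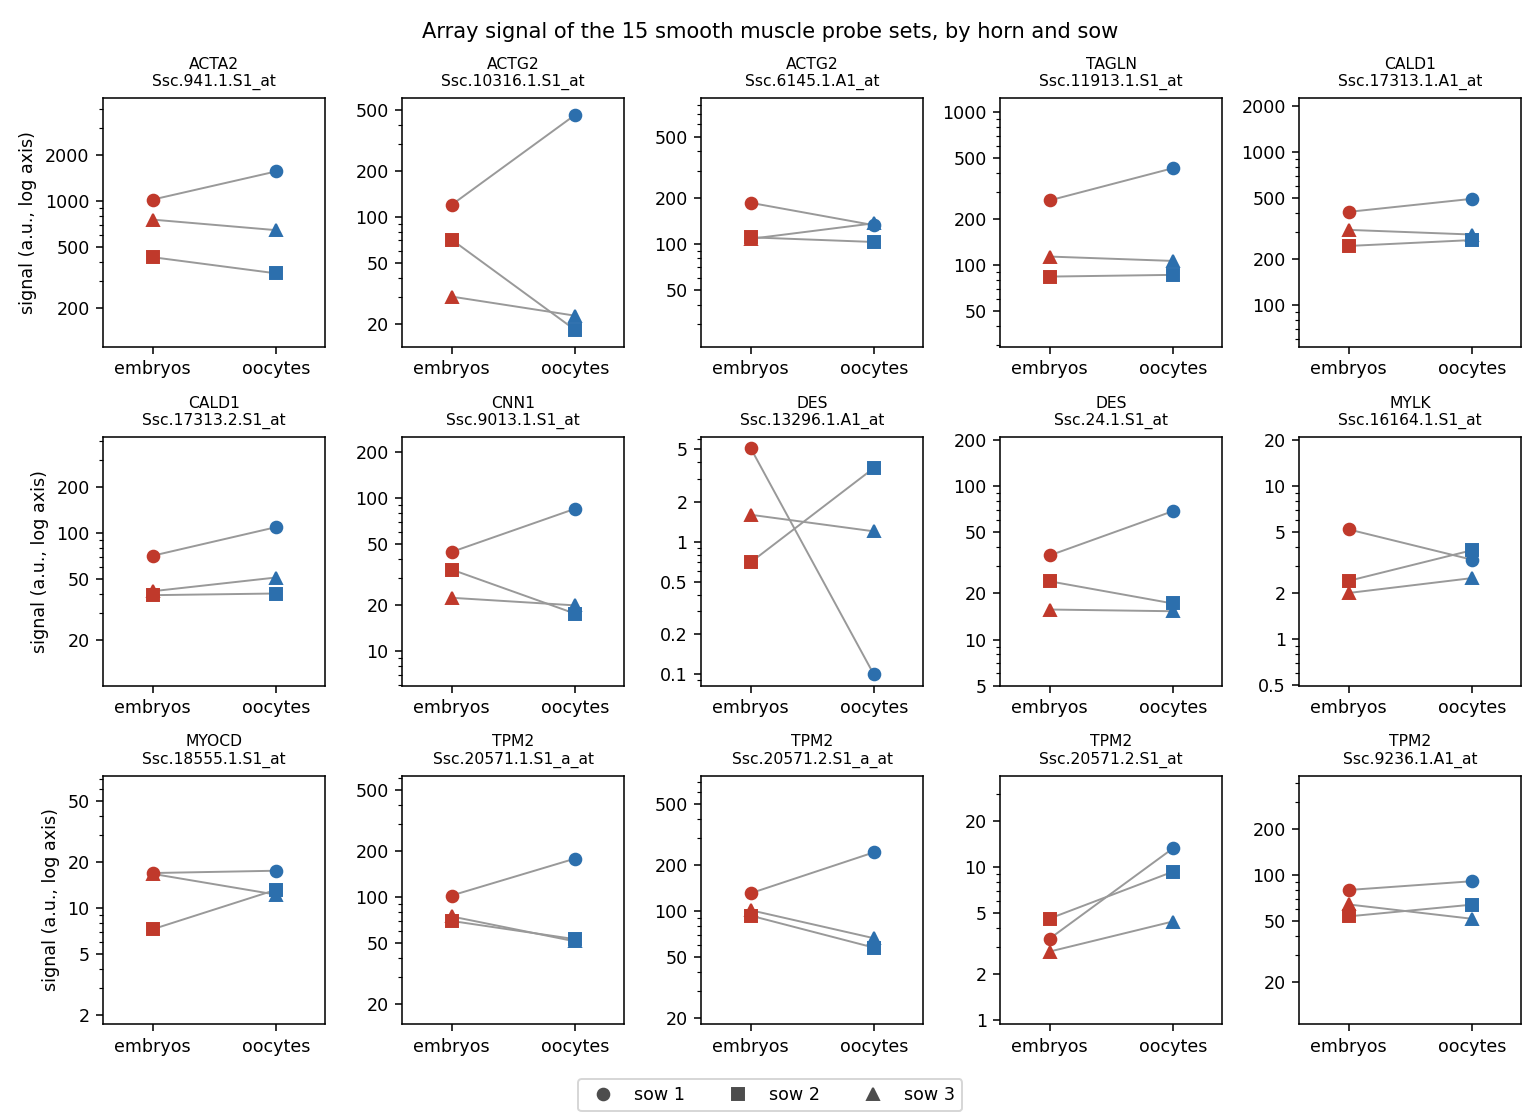
Array signal (arbitrary units, log axis) of the 15 smooth muscle probe sets, with horns with embryos at the left and horns with oocytes at the right of each panel, and a line joining the horns of 1 sow (circles, sow 1; squares, sow 2; triangles, sow 3). Sow 1 holds the highest signal on every panel, as for TAGLN with 264 in its embryo horn and 428 in its oocyte horn, and the groups overlap on all 15 panels.

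Between horns with embryos and horns with oocytes, none of the 15 probe sets passed. At an adjusted p under 0.05 (limma, Benjamini-Hochberg over 23999 probe sets) 0 of 15 were called, as was 0% of the array, both without the sow as a block and with it. The smallest adjusted p among the 15 was 1.00 without the block and 0.634 with it. At an unadjusted p under 0.05 the counts were 0 of 15 without the block, against 2.88% of all probe sets, and 0 of 15 with it, against 8.70%. In 2 of the 15 (CALD1 Ssc.17313.2.S1_at and TPM2 Ssc.20571.2.S1_at) the signal was lower with embryos in all 3 sows, as in 14.8% of all probe sets, and 0 of 15 were higher in all 3 sows, as against 14.9%. The groups overlapped in each of the 15, whereas they did not overlap in 7.33% of all probe sets.

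The median log2 difference of the 15 probe sets was -0.05, with a range of -1.23 to 1.19, beside a median of 0.01 over all probe sets. The sows did not share a direction: the median of the 15 was -0.65 in sow 1, -0.00 in sow 2 and 0.13 in sow 3, and embryo horns had the lower signal in 12, 8 and 5 of the 15. Among the 9 probe sets with a mean log2 signal above the median of the array, which belong to ACTA2, ACTG2, TAGLN, CALD1 and TPM2, the median was -0.01 and the range -0.32 to 0.14. Their direction changed with the arrays included. Without the oocyte horn of sow 1 all 9 were higher with embryos (median 0.51), and 3 of the 15 had an unadjusted p under 0.05, as did 2.51% of all probe sets. These were ACTG2 Ssc.10316.1.S1_at, with a log2 difference of 1.61, and both TPM2 probe sets with a name ending in S1_a_at, with 0.62 and 0.78. Without the embryo horn of sow 1 all 9 were lower with embryos (median -0.29), and 0 of the 15 had an unadjusted p under 0.05, against 4.32% of all probe sets. All 9 were also lower without the oocyte horn of sow 2 (median -0.28), and 8 of the 9 without the oocyte horn of sow 3 (median -0.23), while 8 of the 9 were higher without the embryo horn of sow 2 (median 0.13). Without both horns of sow 1 the median over the 15 was 0.03, with 2 at an unadjusted p under 0.05 (3.18% of all probe sets), and with the sow as a block besides, 4 of the 15 had one (6.46% of all probe sets). No adjusted p of a member was under 0.05 in any of these fits.

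**Figure D2:**
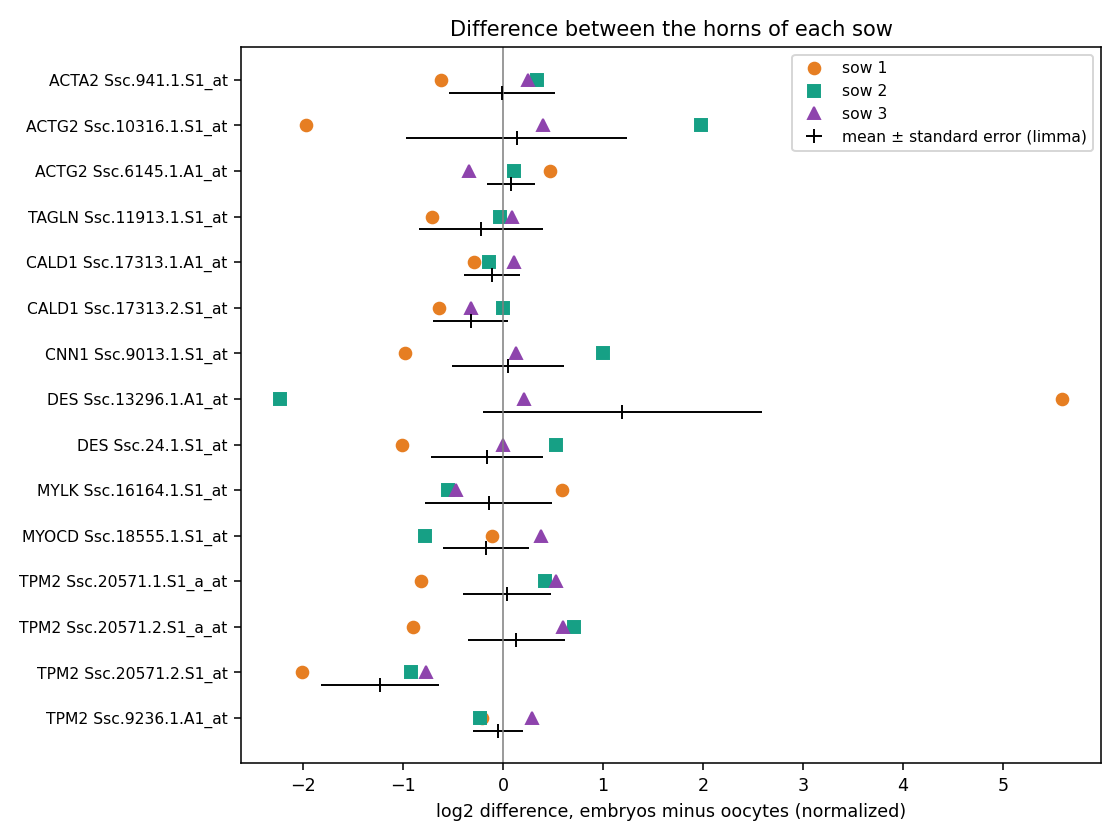
Log2 difference, embryos minus oocytes, of each smooth muscle probe set in each sow (coloured points, cyclic loess normalized signals), with the mean and its standard error from limma as a cross just below. Points of sow 1 lie left of 0 for 12 of the 15 probe sets, and the mean lies within 2 standard errors of 0 for 14 of the 15, TPM2 Ssc.20571.2.S1_at (-1.23, SE 0.59) being the exception.

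The spread of most of these probe sets was wide for their level. Over the 6 arrays the SD of the normalized log2 signal was 0.74 at the median of the 15 probe sets and 0.66 at that of the 9 above the median level, beside 0.40 over all probe sets. Because dim probe sets scatter more, each of the 15 was ranked among the 1000 probe sets nearest to it in level. It stood at percentile 99.9 for ACTG2 Ssc.10316.1.S1_at (SD 1.75), 99.4 for TAGLN, 99.1 for ACTA2 (SD 0.83) and 98.7 for TPM2 Ssc.20571.2.S1_a_at, and 7 of the 9 were above the ninetieth percentile. The exceptions were ACTG2 Ssc.6145.1.A1_at at 74.0 and TPM2 Ssc.9236.1.A1_at at 55.6. Of the dimmer probe sets, CNN1 stood at 96.0 and DES at 94.8 and 93.2. TPM2 Ssc.20571.2.S1_at at 32.7, MYOCD at 25.8 and MYLK at 2.4 were not wide for their level. With the sow as a block, the median SE of the difference between the horns fell to 0.26 for the 15 probe sets, against 0.53 without it. Over all tested probe sets it fell as well, to 0.25 from 0.34.

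**Figure D3:**
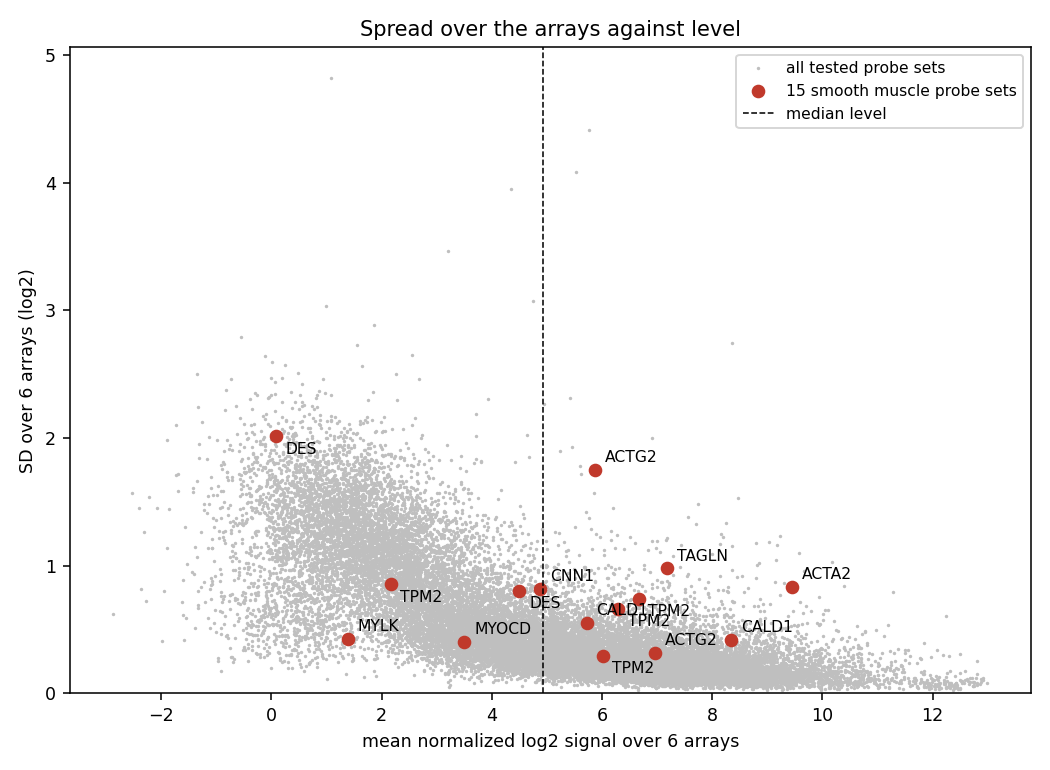
SD of the normalized log2 signal over the 6 arrays against the mean log2 signal, for all 23999 tested probe sets (grey) and the 15 smooth muscle probe sets (red, with the gene symbol), and the median level as a dashed line. ACTG2 (SD 1.75), TAGLN and ACTA2 (SD 0.83) lie at the upper edge of the probe sets of their level.

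An F-test of the sow in the limma fit with group and sow, added after the signals had been seen, placed 7 of the 15 probe sets at an adjusted p under 0.05, as against 11.3% of the array. They were TAGLN (adjusted p = 0.000338), ACTA2 (0.000965), both probe sets of CALD1 (0.00287 and 0.0239), ACTG2 Ssc.10316.1.S1_at (0.0238) and TPM2 Ssc.20571.1.S1_a_at and Ssc.20571.2.S1_a_at (0.0433 and 0.0496). CNN1 (0.0950) and DES Ssc.24.1.S1_at (0.0759) did not pass. All 7 lay above the median level of the array, where more probe sets pass. In a fit of only the probe sets above that level, 7 of 9 members passed, as against 26.5% of 11999 probe sets. The count rests in part on 1 array: without the oocyte horn of sow 1 it was 3 of 15 (ACTA2, TAGLN and CALD1), and without both horns of sow 1 it was 1 of 15 (ACTA2), while the share of the array fell as well, to 5.49% and 2.82%. It was 0 of 15, and 0 over the array, when the variance was not allowed a trend on the level. Each sow gave 2 scrapings, so the sow cannot be told apart from anything else that the arrays of a sow shared.

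The arrays were then followed as a profile, the mean of the centred log2 signals of the brightest probe set of ACTA2, ACTG2, TAGLN, CALD1 and TPM2. It stood at 0.54, -0.45 and -0.12 in the embryo horns of sows 1, 2 and 3 and at 0.95, -0.65 and -0.26 in the oocyte horns, so the order of the sows was the same on both sides. Over the 10 pairs of these 5 genes, Pearson's r over the 6 arrays ran between 0.42 and 0.99 with a median of 0.88, and the lowest belonged to a pair with ACTG2, whose brightest probe set is the flat one. These are 6 arrays from 3 sows, so the values describe them and carry no test.

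Among 4842 other genes with a signal above the median of the array, the 10 most like this profile had r between 0.978 and 0.992. First was CDH13, T-cadherin, an adhesion molecule found on vascular cells, with 1639, 1106 and 1293 in embryo horns and 1900, 1121 and 1220 in oocyte horns. ANGPT2, angiopoietin-2, a ligand of the endothelial receptor TEK, gave 55, 24.8 and 35.3 with embryos and 60.0, 25 and 33.5 with oocytes. The others were SLCO3A1, an organic anion transporter, FGF13, the clathrin heavy chain CLTC, the proteasome subunits PSMD8 and PSMC5, and C7H6orf125, LOC100522678 and LOC100525935. A high r did not mean a large spread, since CLTC had an SD of 0.07 over the arrays.

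The genes that work beside the contractile set were taken from lists of related genes, with the brightest probe set for each gene. Of 32 other smooth muscle structure genes 20 were measured, 0 passed at an adjusted p, 0 had an unadjusted p under 0.05, and their median log2 difference was -0.04. TPM1, alpha-tropomyosin, which non-muscle cells make too, was high on every array, with 3928, 3716 and 3223 with embryos and 3940, 4074 and 3040 with oocytes. The sum of this list in the oocyte horn of sow 1 was 1.13 times the median of the other 5 arrays, a sum of which TPM1 made up a large part, and 2.34 times for the contractile genes. By single genes, 13 of the 20 were highest in the oocyte horn of sow 1, as against 21.1% of all probe sets. Most of these peaks were small. Of the 15 genes above the median level, 1 was over 2 times the median of the other 5 arrays. It was 6 of 9 for the contractile probe sets above that level, and 9.53% of all probe sets. PDLIM1, among the 3 brightest of the list, stood at 0.897 times. Picked after their values were seen, SMTN, smoothelin of contractile smooth muscle, had 162, 134 and 123 with embryos and 231, 126 and 106 with oocytes, and SYNM, a partner of desmin, 45.3, 22.4 and 22.9 with embryos and 65.7, 37.3 and 23.5 with oocytes.

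For the myosin light chain switch and calcium handling, 18 of 23 genes were measured, 0 passed at an adjusted p, and the median log2 difference was -0.03. The unadjusted p was under 0.05 for 0 of 18 (2.88% of the array). With the sow as a block it was so for 3 genes higher and 1 lower with embryos (8.70% of the array). The higher ones were PPP1CB and, named after their values were seen, CALM3 and MYL9. The lower one was ROCK1, with 76.4, 42.3 and 59.5 with embryos and 118, 80.4 and 68.3 with oocytes. Its log2 difference was -0.59 (limma, unadjusted p = 0.0598, and 0.00553 with the sow as a block). MYL6, a myosin light chain of smooth and non-muscle cells, was even, between 1875 and 2120. MYL9, the light chain that the kinase phosphorylates, chosen after its values were seen, had 139, 81.9 and 89.2 with embryos and 143, 61.1 and 55.1 with oocytes, high in both horns of sow 1. Of the serum response factor regulators 7 of 19 were measured and of the myometrial receptors and channels 13 of 24, with 0 genes at an unadjusted p under 0.05 in either. With the sow as a block, 2 of the 7 regulators had one in limma, MEF2D (log2 difference of 0.30, unadjusted p = 0.0351) and TEAD1 (-0.55, unadjusted p = 0.0494), and 0 of the 13 receptors and channels. RGS2, which shortens signals of G protein-coupled receptors, was the brightest of the receptor list, with 1949, 1554 and 1270 with embryos and 1763, 1507 and 1134 with oocytes.

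Markers of other cells varied among the sows as well, in part in the same order. Summed over the 9 measured contractile genes, the signal was 2111, 1030 and 1447 in embryo horns and 3033, 903 and 1294 in oocyte horns, and without ACTA2 the oocyte horn of sow 1 was still 2.27 times the median of the other 5 arrays. The 14 measured of 18 stromal fibroblast markers summed to 6494 to 11089 with embryos and 6694 to 11176 with oocytes, with both highest sums in sow 1 and the oocyte horn of sow 1 at 1.34 times the other arrays. The 7 measured of 12 pericyte and vessel wall markers summed to 354 to 722 with embryos and 380.5 to 769 with oocytes (1.3 times), and relative to the median of the 6 arrays they were lowest in sow 2, at 0.579 with embryos and 0.622 with oocytes, beside 0.751 and 0.659 for the contractile genes. Of these markers PDGFRB, the receptor that holds pericytes to vessels, had 282, 178 and 258 with embryos and 302, 194 and 227 with oocytes. Taken singly, 6 of the 7 were highest in the oocyte horn of sow 1, as against 21.1% of all probe sets. The count was 5 of 14 for stromal fibroblast markers, 2 of 12 for endothelial markers and 2 of 9 for leukocyte and blood markers. The 12 measured of 16 endothelial markers were at 359.9 to 514 with embryos and 370.0 to 483 with oocytes (1.09 times). Of these FLT1, a receptor of vascular endothelial growth factor, was dim, with 6.3, 0.9 and 3 with embryos and 7.9, 9.5 and 15 with oocytes. Its log2 difference of -2.04 (limma, unadjusted p = 0.0243) rests on these dim signals. The sum of the 15 measured of 20 uterine epithelial markers ran the other way, at 10467 to 13915 with embryos and 10857 to 13321 with oocytes. Sow 1 was lowest on both sides (0.837 times for its oocyte horn), in a sum of which KRT8 made up a large part. Single markers differed, as 2 of the 15 were highest in the oocyte horn of sow 1. These were FOXA2, with 366, 206 and 361 with embryos and 460.5, 294.5 and 369 with oocytes, and CLDN3, picked after its values were seen. The 9 measured of 14 leukocyte and blood markers were at 388 to 494 with embryos and 427 to 511 with oocytes (1.01 times). Among the markers of these other cells, only FLT1 and the epithelial ST14 had an unadjusted p under 0.05 (2.88% of the array). For ST14 the log2 difference was 0.45 (limma, unadjusted p = 0.0184). With the sow as a block FOXA2, lower with embryos, joined them (8.70% of the array), and 0 passed at an adjusted p. No defining marker of these lists was listed at 0 on any array. Only 1 to 3 probe sets of any kind were at 0 per array, so this does not show that a cell type was present. The part of these cells in the contractile signals was not tested, and in such bulk scrapings fewer cells of a type and less RNA per cell cannot be told apart.

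**Figure D4:**
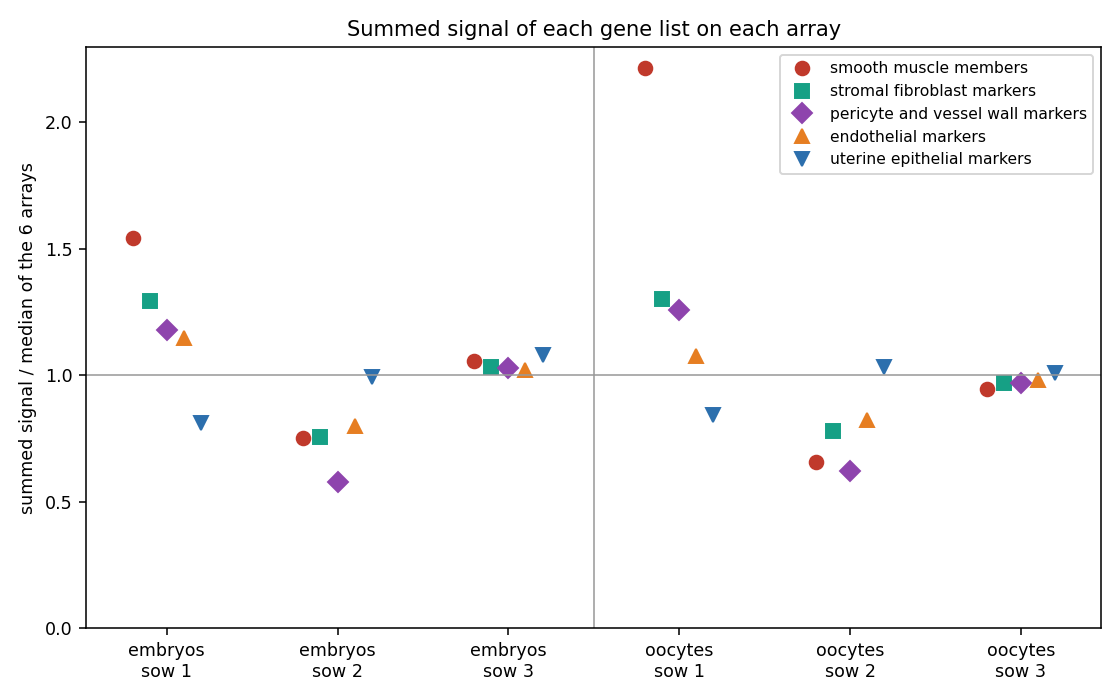
Summed signal of 5 gene lists on each array, as a ratio to the median of the 6 arrays, with horns with embryos at the left and horns with oocytes at the right. The smooth muscle members stand at 1.54 in the embryo horn and 2.21 in the oocyte horn of sow 1, where stromal fibroblast markers stand at 1.29 and 1.3 and epithelial markers at 0.812 and 0.842.

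Genes of other kinds of muscle and non-muscle relatives of the set were also read. The 15 measured of 21 striated muscle genes were all below the median level of the array, and their sum in the oocyte horn of sow 1 was 1.46 times the median of the other 5 arrays. The sum was a little higher in the embryo horn of sow 1 (113.1 against 110.7). By single genes, 2 of the 15 were highest in the oocyte horn of sow 1, as against 21.1% of all probe sets. The 11 measured of 12 non-muscle relatives (cytoplasmic actins, TAGLN2, CNN2 and CNN3, non-muscle myosins, TPM3 and TPM4, VIM) stood at 1.26 times in that horn. Taken singly, 5 of the 11 were highest there. ACTG1, cytoplasmic gamma-actin, was even across the arrays, at 4474 to 5391 with embryos and 4666 to 5098 with oocytes. ACTB, cytoplasmic beta-actin, was not, with 4726, 2454 and 3083 with embryos and 4964.5, 3621 and 3779 with oocytes. Its log2 difference was -0.30 (limma, unadjusted p = 0.247, and 0.00827 with the sow as a block). With the block 2 of the 11 had an unadjusted p under 0.05 (8.70% of the array), and 0 without it (2.88%). VIM, vimentin of mesenchymal cells, had 2266, 1256 and 1867 with embryos and 2670, 1209 and 1630 with oocytes.

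The 5'/3' ratio of the control probe sets, a measure of how complete the RNA copies were, also had its highest value in the oocyte horn of sow 1. The embryo horn of sow 1 came second for both controls. For GAPDH it was 0.243, 0.130 and 0.199 with embryos and 0.355, 0.200 and 0.226 with oocytes, and for beta-actin 0.149, 0.0577 and 0.104 with embryos and 0.219, 0.105 and 0.118 with oocytes. Median signals of the arrays lay between 30.6 and 35.8. Both ratios were lower in the embryo horn than in the oocyte horn in all 3 sows, although the groups overlapped, so the ratio moved with the comparison of the horns too. Control probe sets for bacterial transcripts were also high on both arrays of sow 1. At the 5' end, dap gave 175.1, 39.2 and 47.4 with embryos and 122.3, 58.7 and 58.8 with oocytes. For thr the signals were 45, 9.9 and 13.3 with embryos and 42.5, 17.2 and 26.2 with oocytes. The same arrays were highest for phe, and the dim lys controls were mixed. The part of RNA quality, or of what raised these controls, in the contractile signals was not tested.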

How the data were processed

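The deposited values are signal intensities on a linear scale, 1 per probe set and array, which the authors made with MAS5 version 5.1 after hybridising biotin-labelled cRNA. The Lowess correction described by the authors was not part of them, and no detection calls were used here. Of 24123 probe sets, 124 controls were removed after normalization. Signals under 0.1 were set to 0.1 and log2 values normalized by cyclic loess. The groups were compared with limma 3.58.1 in R 4.3.3 (variance trend, Benjamini-Hochberg at 0.05). This comparison was run on simulated data with independent arrays, which does not test it where sows differ. Figures were drawn with matplotlib 3.10.9.

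Arrays carry the numbers 1 to 3 in each group. All 6 ratios that the methods give per sow matched arrays of equal number, which identified each sow (deviations from the group means correlated at 0.207, 0.173 and 0.100). The number of arrays, 3 per group, limits the precision.

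Symbols come from the array's annotation (10069 probe sets with 1 symbol, 198 with several). Members and lists were chosen with earlier results of these data known. Named genes are all members, the 3 brightest and the 2 with the smallest p of a list where the text describes them, the 10 most like the profile, and those said to be picked later. Alternatives were other normalizations, a constant of 32 added before log2, dropping probe sets below the median level, variances without a trend, a block for the sow, and leaving out arrays.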

Additional observations from a re-analysis of the deposited data

How the results depend on the processing

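At an adjusted p under 0.05, 0 of the 15 smooth muscle probe sets and 0 over the array were called in every setting run, except that 2 probe sets outside the 15 passed with the sow as a block and without both arrays of sow 1, a setting chosen after seeing the data. The replicate block changed no call of a member (0 of 15). It made the median standard error of the 15 0.26 in place of 0.53, and that of all tested probe sets 0.25 in place of 0.34. The count of members at an unadjusted p under 0.05, 0 in the fit reported, was 1 with 32 added to each signal (3.13% of the array), 1 without a variance trend (3.73%), 2 without both arrays of sow 1 (3.18%) and 4 with the block besides (6.46%), and 0 to 3 on leaving out 1 array (2.31% to 4.32%, with 3 without the oocyte horn of sow 1, at 2.51%). The 1 member with 32 added, and the 1 without a variance trend, was TPM2 Ssc.20571.2.S1_at. The count of members that differed between the sows, 7, was 0 without a variance trend (0% of the array), 1 without both arrays of sow 1 (2.82%), and 3 to 9 on leaving out 1 array (5.49% to 15.2%). The median difference of the 15 ran between -0.30 and 0.19 when 1 array was left out, was 0.03 without both arrays of sow 1, -0.11 with the brightest probe set of each gene and -0.14 with the mean of each gene, and -0.05 to -0.01 in the other settings.

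Single members turned in sign under some settings, and the cause was not tested. ACTA2 was at 0.0030 on scaling to the same median. With 32 added, ACTG2 Ssc.10316.1.S1_at was at -0.17, CNN1 at -0.053 and TPM2 Ssc.20571.1.S1_a_at at -0.022. Without both arrays of sow 1, with or without the block, ACTA2 was at 0.29, ACTG2 Ssc.6145.1.A1_at at -0.12, TAGLN at 0.030, DES Ssc.13296.1.A1_at at -1.01, DES Ssc.24.1.S1_at at 0.27 and TPM2 Ssc.9236.1.A1_at at 0.037. Leaving out 1 array in turn gave ranges of -0.54 to 0.59 for ACTA2, -0.68 to 1.61 for ACTG2 Ssc.10316.1.S1_at and -0.18 to 0.22 for ACTG2 Ssc.6145.1.A1_at. They were -0.70 to 0.51 for TAGLN, -0.31 to 0.19 for CALD1 Ssc.17313.1.A1_at, -0.61 to 0.079 for CALD1 Ssc.17313.2.S1_at and -0.34 to 0.74 for CNN1. For DES they were -0.33 to 2.27 (Ssc.13296.1.A1_at) and -0.54 to 0.49 (Ssc.24.1.S1_at), for MYLK -0.48 to 0.12 and for MYOCD -0.37 to 0.17. For TPM2 they were -0.27 to 0.62 (Ssc.20571.1.S1_a_at), -0.24 to 0.78 (Ssc.20571.2.S1_a_at) and -0.23 to 0.16 (Ssc.9236.1.A1_at), while Ssc.20571.2.S1_at stayed lower with embryos, at -1.62 to -0.96, and at -0.20 with 32 added. Signal over background could not be judged without detection calls, so MYLK, MYOCD and the dim probe sets of DES and TPM2 carry the least information.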
